A study of Mus musculus with 14 samples.

Results

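The subject is the transcript of Dnmt1 (Entrez Gene 13433), the gene that was deleted in these mice. Its members are the probe sets, each a group of short probes read as 1 value, whose gene symbol is Dnmt1. Dnmt1 is 1 of 12393 genes that the platform annotation names by a single symbol, and 2 of 22626 probe sets read it, 1422946_a_at and 1435122_x_at. Both passed the filter on dim signal, which kept 15549 probe sets. By the manufacturer's naming, an _a_at probe set reads alternative transcripts of 1 gene, and an _x_at probe set may also bind other transcripts.

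The RNA came from cells sorted from the marrow of C57BL/6 mice aged 8 to 12 weeks and was hybridised to 14 Affymetrix arrays. Knockout mice carried floxed Dnmt1 alleles and the Mx-Cre transgene (Dnmt1fl/fl Mx-Cre+), and control littermates carried the floxed alleles without the transgene (Dnmt1fl/fl Mx-Cre-). Controls and knockouts alike were injected 7 times with poly(I)-poly(C), a synthetic double-stranded RNA, at a dose of 25 ug/kg. Cells were collected 4 days later. After depletion of mature cells, long-term hematopoietic stem cells (LT-HSCs, c-Kit+ Sca-1+ CD34-), multipotent progenitors (MPPs, c-Kit+ Sca-1+ CD34+) and myeloid progenitors (c-Kit+ Sca-1-) were sorted. Per genotype there were 2 LT-HSC, 2 MPP and 3 myeloid progenitor arrays, which formed 7 littermate pairs. A sample was a pool of 4 to 6 animals of 1 genotype, so all errors are those of pools. The Mx promoter is switched on by interferon, which poly(I)-poly(C) induces, and acts in other tissues than blood too. Which exons of Dnmt1 are floxed is not stated in the labels, and the positions of the probes were not used here. The signal may therefore include transcripts of a deleted allele, and it checks the genotype labels only in part.

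Dnmt1 is the maintenance DNA methyltransferase: after replication it copies the methyl groups of the old strand onto the new one. The protein Uhrf1 binds hemimethylated DNA and brings Dnmt1 to it, and the sliding clamp Pcna ties it to the replication fork. The gene is most active in dividing cells. In the mouse it is transcribed from more than 1 start, among them a start used in oocytes and another used in somatic cells.

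The RefSeq table of assembly GRCm38.p6 holds 3 windows of 300 bases around annotated starts of Dnmt1, on the minus strand of chromosome 9. The farthest upstream and the farthest downstream window are shown because they differ most in their content of CG, the dinucleotide that Dnmt1 methylates. Sequences run 5′ to 3′, and capitals mark each CG.
Upstream start, chr9:20959839-20960138, minus strand: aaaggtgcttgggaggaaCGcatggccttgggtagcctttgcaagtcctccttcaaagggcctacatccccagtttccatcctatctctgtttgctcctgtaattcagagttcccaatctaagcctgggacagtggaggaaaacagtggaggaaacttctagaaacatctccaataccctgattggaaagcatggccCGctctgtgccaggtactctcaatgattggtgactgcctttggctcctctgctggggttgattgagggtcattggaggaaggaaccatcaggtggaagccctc
Downstream start, chr9:20952574-20952873, minus strand: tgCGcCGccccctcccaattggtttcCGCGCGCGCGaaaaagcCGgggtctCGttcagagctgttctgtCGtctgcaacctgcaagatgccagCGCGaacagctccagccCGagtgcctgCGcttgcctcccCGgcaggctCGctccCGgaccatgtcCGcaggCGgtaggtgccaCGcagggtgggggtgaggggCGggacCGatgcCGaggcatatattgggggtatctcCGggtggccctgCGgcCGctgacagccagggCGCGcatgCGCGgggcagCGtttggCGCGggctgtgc
The upstream window held 2 CG and the downstream window 33, and the window between them held 12, against a median of 7 over 32851 windows of this length. Of all windows, 8.56% held 33 or more CG. The letters TTTGGCGC, a form of the motif of E2F factors of the cell cycle, were found in the downstream window and in 0.514% of all windows, with both strands searched. TTTCCCGC, another form, was in none of the 3 Dnmt1 windows and in 1.07% of all windows. The arrays gave 1 signal per probe set and did not separate transcripts by their start.

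Array medians ranged over 41.1 to 49.1 intensity units, and replicate arrays had an r of 0.904 to 0.982 with each other. Myeloid progenitor control array 1 stood apart in its control probes for 18S ribosomal RNA, with 856, 404 and 3086 units for the 3′, 5′ and middle probe sets. The other 13 arrays lay at 5366 to 8230, 3302 to 5121 and 6617 to 9320 units. Its 3′/5′ ratio of Gapdh, a measure of RNA integrity, was 5.27, and that of its knockout partner was 2.33. In LT-HSC pair 1 the ratio was 5.15 (knockout) and 5.44 (control), and in myeloid progenitor pair 2 it was 4.35 and 4.30. Interferon genes were bright on both arrays of 3 littermate pairs and dim on those of the other 4 pairs. The sorted cells were checked with markers. Kit, a receptor used in the sort, had 178 to 279.8 units on LT-HSC knockout and 227 to 488 on LT-HSC control arrays, and 295 to 524 on MPP knockout and 449 to 883 on MPP control arrays. Cd34, which separated LT-HSCs from MPPs in the sort, had 20.5 to 68.9 units on LT-HSC knockout and 7.55 to 96.8 on LT-HSC control arrays, and 310.2 to 615 on MPP knockout and 748 to 1021 on MPP control arrays. The summed signal of 9 measured B cell markers, of 10 listed, was 6304 to 9853 units on LT-HSC knockout arrays and 7111 to 13276 on LT-HSC control arrays, against 154 to 2567 on all other arrays. Cd79a, a part of the B cell receptor, was at 320.2 to 1380.3 units on LT-HSC knockout arrays and 559 to 1682 units on LT-HSC control arrays. The LT-HSC arrays thus carried B cell signal as well.

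Dnmt1 signal was lower on the knockout arrays of each population and with each probe set. By deposited intensity all 7 knockout arrays lay below all 7 control arrays with both probe sets, and after normalization with 1435122_x_at only. Averaged over the 3 populations, 1435122_x_at fell by 1.05 on the log2 scale, to 48.3% of control, and in the fit without littermate pairs as blocks it was the only probe set of 15549 that fell past the threshold. With the pairs as blocks both Dnmt1 probe sets were among 26 that did. 1422946_a_at stood at -0.63, or 64.8% of control. The decrease was present in 7 of 7 littermate pairs. A signal well above the middle of the array remained on every knockout array.

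The intensities of 1422946_a_at, which is annotated to RefSeq NM_010066, were as follows. LT-HSCs had 1169.7 and 1305 units on knockout arrays 1 and 2, against 2219 and 1818 units on control arrays 1 and 2. MPPs had 1141 and 745 units on knockout arrays, against 1518 and 1596 units on control arrays. Myeloid progenitors had 1055, 1084 and 1193 units on knockout arrays 1, 2 and 3, against 1328, 2156 and 1571 units on control arrays 1, 2 and 3. The lowest value was MPP knockout array 2 and the highest LT-HSC control array 1, and by deposited intensity the genotypes did not overlap in any population or over all 14 arrays. The narrowest gap lay between LT-HSC knockout array 2 and myeloid progenitor control array 1. After normalization this gap closed: LT-HSC knockout arrays 1 and 2 were at 10.45 and 10.36 on the log2 scale, and myeloid progenitor control array 1 was at 10.36. The other 6 control arrays lay above all knockout arrays, and within each population the genotypes stayed apart.

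1435122_x_at, which has no accession in the platform table, was dimmer on the knockout arrays and separated the genotypes more widely. LT-HSCs had 649 and 870.1 units on knockout arrays 1 and 2, against 1843 and 1337 units on control arrays 1 and 2. MPPs had 749.6 and 501 units on knockout arrays, against 1228 and 1415 units on control arrays. Myeloid progenitors had 812, 802 and 775 units on knockout arrays 1, 2 and 3, against 1845.5, 2107 and 1345 units on control arrays 1, 2 and 3. The 3 myeloid progenitor knockout arrays lay close together, while their controls spread widely. The 3 brightest control arrays of this probe set, LT-HSC 1 and myeloid progenitor 1 and 2, were also the 3 control arrays with a Gapdh 3′/5′ ratio above 4, at 5.44, 5.27 and 4.30. The other 4 control arrays had 2.25 to 3.07. The 3′/5′ ratio of Actb, another such control gene, did not set the same 3 arrays apart. It was 0.81, 1.18 and 0.92 on them and 0.97 to 1.13 on the other 4 control arrays. The 2 knockout arrays with a ratio above 4, LT-HSC 1 and myeloid progenitor 2, had 649 and 802 units of Dnmt1, and were not the brightest knockout arrays. With 1422946_a_at, LT-HSC 1 and myeloid progenitor 2 were also the brightest control arrays, at 2219 and 2156 units. Myeloid progenitor 1, however, was the dimmest control array of that probe set, at 1328 units. The part of RNA integrity in the result was not tested.

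**Figure D1:**
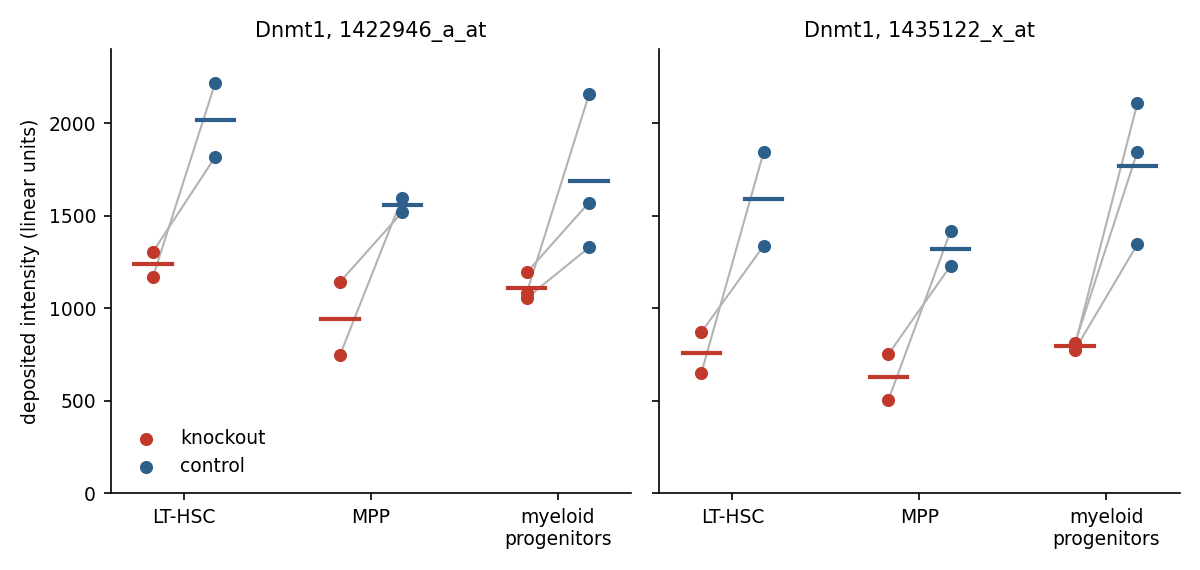
Deposited Dnmt1 intensity (linear units, y axis) on each array for both probe sets, by population (x axis), with knockout arrays in red on the left and control arrays in blue on the right of each population. Grey lines join littermate pairs and bars mark group means; every red point lies below every blue point of its panel.

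By deposited intensity, all 7 knockout arrays lay below all 7 control arrays for 9 of the 15549 probe sets (0.0579%), both Dnmt1 probe sets among them. By normalized values this held for 3 probe sets (0.0193%), which were 1435122_x_at, Rdm1 and Aktip, so that the place of 1422946_a_at depended on the scaling. Of the 3, 1435122_x_at had the largest average difference. The next was Rdm1, a gene of the DNA damage response, at -0.59 ± 0.17 (SE, adjusted p = 0.344). A lower knockout array in 7 of 7 pairs was more common, with 465 probe sets (2.99%).

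The knockout array held between 46.7% and 79.4% of its littermate control's signal with 1422946_a_at, with a median of 71.8%. With 1435122_x_at it held between 35.2% and 65.1%, with a median of 44.0%. These are ratios of deposited intensities, and any share of unspecific signal in them would raise the percentages. On knockout arrays the probe sets ranked between the 91.3rd and the 95.9th percentile (1422946_a_at) and between the 87.5th and the 92.7th percentile (1435122_x_at) of their array. On control arrays they ranked between the 95.5th and 98.4th, and between the 95.1st and 98.0th percentile. The ranks of 1422946_a_at thus overlapped between genotypes, and those of 1435122_x_at did not. In bulk samples, fewer cells with Dnmt1 transcript and less transcript per cell cannot be told apart.

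In a linear model across all probe sets (limma), the average difference of 1435122_x_at was -1.05 ± 0.16 (SE, 7 arrays per genotype, adjusted p = 0.00597). In this fit, without pairs as blocks, only this probe set was called lower (0.00643% of those tested), whereas 53 were called higher (0.341%). Among the 8075 probe sets with a lower average it had the smallest p, and its size was the 4th largest. The average difference of 1422946_a_at was -0.63 ± 0.14, had the 4th smallest p and missed the threshold (adjusted p = 0.136). With the littermate pairs as blocks it passed (adjusted p = 0.0282), as did 1435122_x_at (adjusted p = 0.00370), and 26 probe sets were called lower (0.167%). In size it was the 110th lowest. An exact permutation test that swapped genotypes within the 7 pairs gave a two-sided p of 0.0156 for each probe set, also after adjustment over both, which is the smallest p that all arrangements allow. All tests here, by limma and by permutation, took arrays or pairs of different populations as independent. The labels do not say whether these populations were sorted from the same mice. If they were, the p values over several populations are too small.

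**Figure D2:**
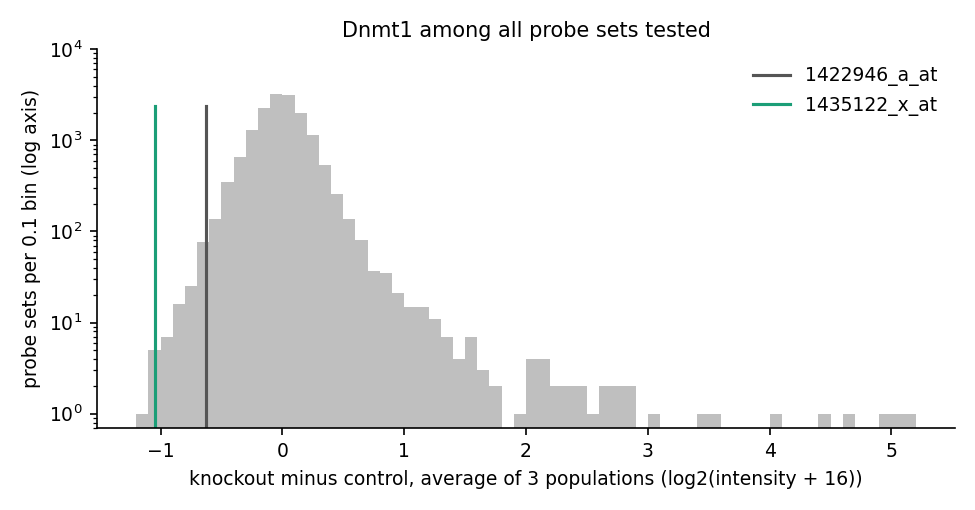
Number of probe sets (y axis, log scale) by their average difference between knockout and control in log2(intensity + 16) units (x axis, bins of 0.1), over 15549 probe sets. Vertical lines mark 1422946_a_at at -0.63 and 1435122_x_at at -1.05, both in the lower tail.

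Within single populations the same direction was seen with smaller numbers of arrays. In LT-HSCs the difference was -0.57 ± 0.26 for 1422946_a_at (adjusted p = 0.667) and -0.99 ± 0.29 for 1435122_x_at (adjusted p = 0.363; n = 2 per genotype). In MPPs it was -0.76 ± 0.26 (adjusted p = 1.00) and -1.09 ± 0.29 (adjusted p = 0.786; n = 2). In myeloid progenitors it was -0.54 ± 0.21 (adjusted p = 1.00) and -1.07 ± 0.23 (adjusted p = 0.20; n = 3). None of the 6 values passed after adjustment over all probe sets, by limma. All 6 were lower at an unadjusted p under 0.05. Lower values with such a p were seen for 575 probe sets in LT-HSCs (3.7%) and 196 in MPPs (1.26%). There were 25 in myeloid progenitors (0.161%) and 430 on average (2.77%). After adjustment 3 probe sets were lower in LT-HSCs (0.0193%), against 0 in MPPs (0%) and 0 in myeloid progenitors (0%). In myeloid progenitors 1435122_x_at had the smallest p of all 7981 probe sets with a lower value, and 1422946_a_at the 5th smallest. Leaving out 1 array moved 4 of these values by over 1.5 times. The difference of 1422946_a_at was -0.33 in LT-HSCs without control array 1, -0.45 in MPPs without knockout array 2 and -0.32 in myeloid progenitors without control array 2, and that of 1435122_x_at was -0.65 in LT-HSCs without control array 1. Without the array with low 18S signal, myeloid progenitor control array 1, the values there were -0.70 and -1.02, and on average -0.68 and -1.03 (adjusted p = 0.0926 and 0.0178).

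**Figure D3:**
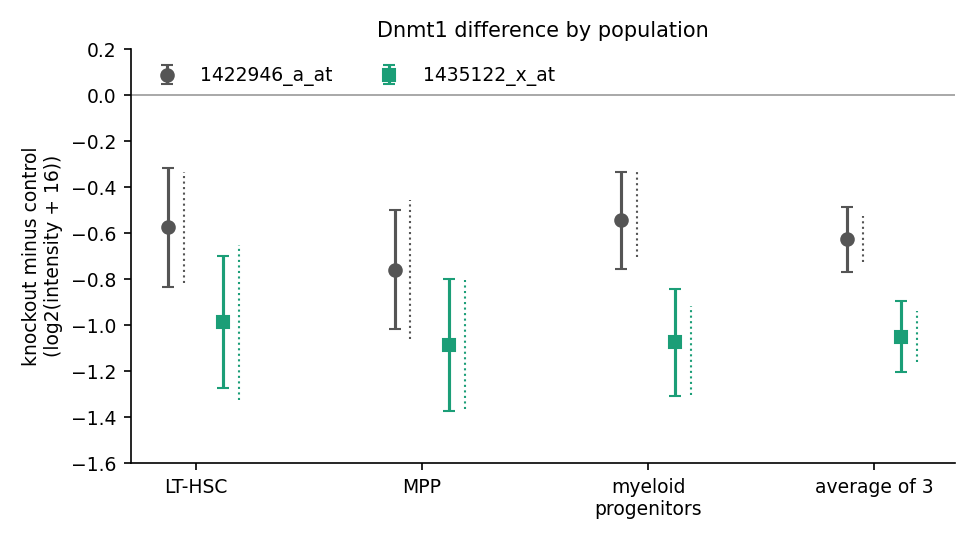
Knockout minus control difference of Dnmt1 (y axis, log2(intensity + 16) units) in each population and on average (x axis) for both probe sets, with error bars of 1 SE from limma. Dotted lines span the values obtained when each of the 14 arrays is left out in turn, and none of them reaches 0.

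Some sums of cell type markers did not overlap between the genotypes in LT-HSCs and MPPs, which had 2 arrays per genotype. The summed signal of 11 measured T and NK cell markers, of 12 listed, was 1018 to 2209 units on LT-HSC knockout arrays and 440 to 823 on LT-HSC control arrays. The sum of 7 erythroid markers, of 9 listed, was 3684 to 3767 units on MPP knockout arrays and 1751 to 3353 on MPP control arrays. The markers of the sorted populations themselves, 9 of 10 listed, summed to 7647 to 8061 units on MPP knockout and 8889 to 9347 units on MPP control arrays. Monocyte markers, 5 of 7 listed, had 100.3 to 191 units on LT-HSC knockout arrays and 83.4 to 98.4 units on LT-HSC control arrays. By limma 0 members of these lists passed the threshold in these comparisons. At an unadjusted p under 0.05 by limma, 3 T and NK cell and 0 monocyte markers were higher in LT-HSCs. In MPPs 4 erythroid markers and 1 of the sorted populations were. Of all 15549 probe sets, 570 in LT-HSCs and 228 in MPPs were higher at such a p. Sums of mature granulocyte and megakaryocyte markers overlapped between genotypes in LT-HSCs and MPPs. In myeloid progenitors the sums of all 8 marker lists overlapped between genotypes, as with 4007 to 4796 units of erythroid markers on knockout arrays and 3438 to 5003 on control arrays. A sum follows its brightest members, and not every member overlapped there. Cd68, of the monocyte list, had 91.6 to 112 units on knockout and 26.9 to 67.3 on control arrays. Procr, of the sorted population list, had 21.5 to 29.0 and 39.2 to 69.9 units. Slc4a1, of the erythroid list, had 81.5 to 105.4 units on knockout and 56.8 to 80.7 on control arrays. Cd3e, of the T and NK cell list, had 16.6 to 21.7 and 3.57 to 16.1 units. The part of these cells in the Dnmt1 difference was not tested in any population.

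The size of the Dnmt1 difference was compared between the populations as interaction terms. For 1422946_a_at the difference in LT-HSCs minus that in MPPs was 0.18, with a 95% interval of ± 0.79. In myeloid progenitors minus MPPs it was 0.21 ± 0.72 (95% interval), and in LT-HSCs minus myeloid progenitors -0.03 ± 0.72. For 1435122_x_at the same comparisons gave 0.10 ± 0.87, 0.013 ± 0.80 and 0.089 ± 0.80. None passed (adjusted p of 0.999 to 1.00). The intervals still allow a change that is over 0.5 log2 units larger in any of the populations than in another. By limma 0 probe sets of the whole table passed in each of these comparisons (0% in each), with 500, 67 and 461 at an unadjusted p under 0.05.

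The probe sets differed from each other in the size of the change. The decrease was larger with 1435122_x_at than with 1422946_a_at in 7 of 7 pairs. The average difference between their changes was -0.42 on the log2 scale (exact permutation within pairs, two-sided p = 0.0156, the smallest possible). It was smallest in LT-HSC pair 2, at -0.15, and largest in myeloid progenitor pair 1, at -0.88. In that pair the ratio of the signals, 1435122_x_at over 1422946_a_at, was 0.770 on the knockout array and 1.39 on the control array. The other knockout arrays had ratios of 0.555 to 0.741 and the other control arrays 0.735 to 0.978. Without myeloid progenitor pair 1 the average was -0.37 (exact permutation p = 0.0313, the smallest possible with 6 pairs). Over the 14 arrays the probe sets correlated with r = 0.86, and with r = 0.95 over the 13 arrays without myeloid progenitor control array 1. These r values are descriptions, and the arrays share the split by genotype.

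In control cells the order of the populations by Dnmt1 level depended on the probe set. With 1422946_a_at, LT-HSCs had the highest mean at 2018 ± 284 units (SD, n = 2), followed by myeloid progenitors at 1685 ± 425 units (n = 3) and MPPs at 1557 ± 54.9 units (n = 2). With 1435122_x_at, myeloid progenitors came first at 1766 ± 387 units, followed by LT-HSCs at 1589.9 ± 358 units and MPPs at 1322 ± 132 units. MPPs had the lowest mean with both. With 1435122_x_at the ranges of all populations overlapped, and with 1422946_a_at the myeloid progenitor range of 1328 to 2156 units covered that of MPPs and reached into that of LT-HSCs. For 1422946_a_at LT-HSC control minus MPP control was 0.37 ± 0.26 (SE, adjusted p = 0.547), myeloid progenitors minus MPPs 0.06 ± 0.24 (adjusted p = 0.979) and LT-HSCs minus myeloid progenitors 0.31 ± 0.24 (adjusted p = 0.513). For 1435122_x_at they were 0.27 ± 0.29 (adjusted p = 0.702), 0.38 ± 0.26 (adjusted p = 0.763) and -0.11 ± 0.26 (adjusted p = 0.856). None passed, while over all probe sets tested 1.83%, 0.0579% and 5.34% did. The B cell signal of the LT-HSC arrays moved with these comparisons, and its part was not tested.

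In knockout cells MPPs again had the lowest means. With 1422946_a_at LT-HSCs had 1238 ± 95.9 units, myeloid progenitors 1110.3 ± 72.7 units and MPPs 943 ± 280 units (SD). With 1435122_x_at myeloid progenitors had 797 ± 18.9 units, LT-HSCs 759.8 ± 156 units and MPPs 625 ± 176 units. The MPP spread came from knockout array 2, which was lowest with both probe sets.

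Genes that rose on the knockout arrays were set beside Dnmt1 pair by pair, as a description. Tex19.1, known from germ cells and embryonic stem cells, Trap1a, an X-linked tumour rejection antigen, and Rhox5, an X-linked homeobox gene, are known from earlier results of these same arrays to rise, so their rise is no independent evidence. In MPPs, pair 2 had the larger Dnmt1 decrease, at -1.11 (1422946_a_at) and -1.48 (1435122_x_at), and pair 1 the smaller, at -0.41 and -0.70. Tex19.1 stood at 5.63 in pair 2 and 3.84 in pair 1, Trap1a at 5.91 and 3.36, and Rhox5 at 4.33 and 4.02. The pair with the larger Dnmt1 decrease thus had the larger differences of all 3 genes. By deposited intensity, however, Rhox5 was nearly level on MPP knockout arrays 1 and 2, at 329 and 338 units. Its MPP control arrays were dim, at 7.39 and 1.77 units.

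In myeloid progenitors, pair 2 had the largest Dnmt1 decrease with both probe sets, at -0.98 and -1.35, and the largest differences of Tex19.1, Trap1a and Rhox5, at 5.61, 5.49 and 3.48. Pair 1 had the smallest differences of the 3 genes, at 3.22, 2.66 and 1.31. Its Dnmt1 difference was the smallest with 1422946_a_at, at -0.26, but with 1435122_x_at, at -1.13, it lay between pair 2 and pair 3 (-0.74). Pair 1 also holds the control array with low 18S signal. Its knockout array alone, with 193 units of Tex19.1 and 142 of Trap1a, was below knockout arrays 2 and 3 (920.5 and 707 units, and 814 and 799 units). In LT-HSCs the genes did not share 1 order. Pair 1 had the larger Dnmt1 decrease, at -0.77 and -1.44 against -0.38 and -0.53, while Tex19.1 was at 5.70 in pair 1 and 5.69 in pair 2, Rhox5 at 3.85 and 3.72, and Trap1a at 3.95 and 4.50. Tex19.2, a close relative of Tex19.1, was at 5.12 in pair 1 and 4.36 in pair 2. Trap1a thus went against the order of Dnmt1, Tex19.2 followed it, and Tex19.1 and Rhox5 were nearly level. By deposited intensity Rhox5 had 214 units on LT-HSC knockout array 1 and 228 on knockout array 2. In MPPs Tex19.2 was at 3.01 in pair 1 and 4.60 in pair 2. Its values in myeloid progenitor pairs 1, 2 and 3 were 2.17, 4.87 and 3.91. Rpl39l and Dazl, which also rose, were not set beside Dnmt1 by pair. With 7 pairs from 3 populations no correlation was computed.

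**Figure D4:**
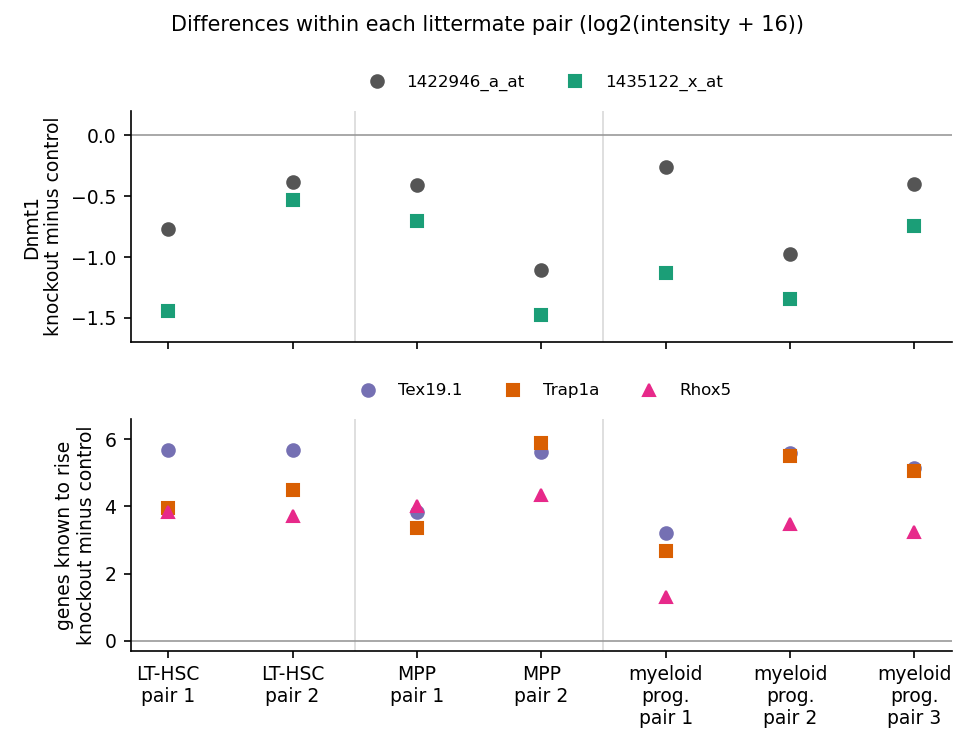
Knockout minus control difference within each littermate pair (x axis) in log2(intensity + 16) units, for the Dnmt1 probe sets (upper panel) and for Tex19.1, Trap1a and Rhox5 (lower panel). In MPPs pair 2 is lowest above and highest below, whereas LT-HSC pairs 1 and 2 differ above and are nearly level in Tex19.1 below.

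Genes next to Dnmt1 on chromosome 9 were examined as a description. The 5 nearest measured genes on each side, by their order in GRCm38.p6, gave 10 genes, of which 9 passed the filter and Icam5, an adhesion molecule of neurons, did not. By limma 0 of the 9 passed the threshold and 0 were under an unadjusted p of 0.05. Of all 15549 probe sets 916 were under such a p on average, 430 lower and 486 higher. Their average differences lay between -0.09 and 0.75 with 7 of 9 above 0 and a median of 0.14, against a median of -0.01 over all probe sets. Ppan, a ribosome biogenesis gene, was at 0.17 ± 0.14, with 279.9 to 347 units on knockout arrays and 224 to 491 on control arrays. Mrpl4, a mitochondrial ribosomal protein gene on the other side, was at 0.12 ± 0.16. Icam1, an adhesion molecule of leukocyte traffic, was at -0.09 ± 0.17. The largest value was that of Icam4, an adhesion molecule of red cells, at 0.75 ± 0.37. The lowest of the 9 neighbours, Icam1, lay above both Dnmt1 probe sets. Nearly all probe sets tested did so, as the Dnmt1 averages were the 4th and 110th lowest of 15549.

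**Figure D5:**
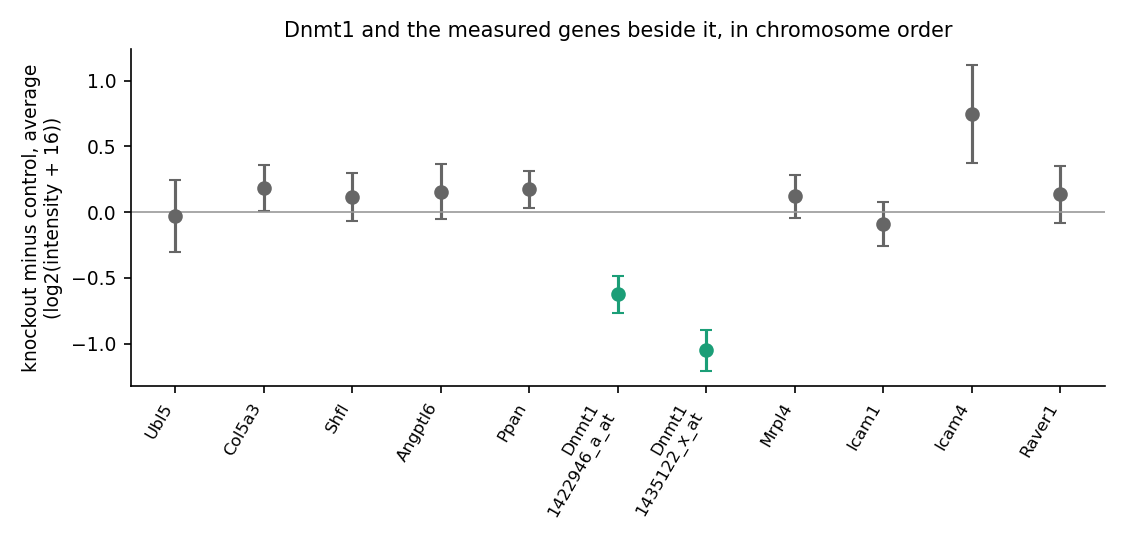
Average knockout minus control difference (y axis, log2(intensity + 16) units, error bars of 1 SE) of the Dnmt1 probe sets and of the 9 measured neighbouring genes in chromosome order (x axis). The neighbours lie between -0.09 and 0.75, and the Dnmt1 probe sets at -0.63 and -1.05.

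The rest of the methylation machinery had small average differences. Of 20 listed genes 13 had a probe set and 12 passed the filter, and by limma 0 passed the threshold in either direction, with 0 under an unadjusted p of 0.05. Among all 15549 probe sets 916 were under such a p. The median and single values of the listed genes follow. Their median was 0.0069, against -0.0097 over all probe sets. Dnmt3a, which sets new methylation, was at -0.21, with -0.06, -0.34 and -0.22 in LT-HSCs, MPPs and myeloid progenitors. Dnmt3b, of the same family, was at 0.21, with 0.56, -0.03 and 0.11. Uhrf1 had 874 and 809.9 units on LT-HSC knockout arrays 1 and 2, against 1138 and 633 units on LT-HSC control arrays 1 and 2, so the genotypes overlapped. Its average was 0.13 ± 0.17.

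Partners of the Dnmt1 protein formed a list that shares Uhrf1 with the one before. All 17 with a probe set, of 20 listed, passed the filter. By limma 0 passed the threshold, 1 was higher at an unadjusted p under 0.05, and the median was 0.04. The 1 was Rb1, the retinoblastoma cell cycle regulator, at 0.40 ± 0.16 (adjusted p = 0.723). Among all 15549 probe sets 916 were under an unadjusted p of 0.05 by limma, 486 of them higher. Csnk1d, a casein kinase, was at -0.29 ± 0.14 (adjusted p = 0.862). Pcna had 1871 and 2884 units on LT-HSC knockout arrays, against 2651 and 2588 units on LT-HSC control arrays, and its average was -0.03 ± 0.10. Genes that supply the methyl donor S-adenosylmethionine had a median of 0.09 over 8 of 12 listed, with 0 past the threshold and 0 under an unadjusted p of 0.05 by limma. Shmt1, of folate metabolism, was at 0.34 ± 0.20 and Shmt2, its mitochondrial counterpart, at 0.29 ± 0.18.

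DNA replication genes are active in the same cell cycle phase as Dnmt1. Of 32 listed 29 passed the filter, and by limma 0 passed the threshold on average. Their median was 0.05, and 1 was higher at an unadjusted p under 0.05, the origin licensing factor Cdc6 at 0.29 ± 0.13 (adjusted p = 0.817). Next by p came Rfc2, a subunit of the clamp loader, at -0.14 ± 0.09. Among all 15549 probe sets 486 were higher and 430 lower on average at an unadjusted p under 0.05. In LT-HSCs the median was -0.06, with 0 past the threshold by limma and 1 lower at an unadjusted p under 0.05, Rfc2 at -0.41 ± 0.16. There, 575 of all probe sets (3.7%) were lower at such a p. Between control LT-HSCs and MPPs the replication genes had a median of 0.10.

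The interferon response, through which Mx-Cre is induced, was also examined. Mx1, the gene whose promoter drives the transgene, had 4.34 and 16.6 units on LT-HSC knockout arrays, against 4.73 and 45.8 units on control arrays. Mx1 lay between 4.34 and 71.8 units on all 14 arrays, 4 days after the last injection. Other interferon genes were brighter and differed widely between arrays of 1 group. Oas1a, a sensor of double-stranded RNA, had 174 to 817 units on LT-HSC knockout arrays and 114 to 1405 units on LT-HSC control arrays. Irf7, a transcription factor of the response, had 52.3 to 262 units on LT-HSC knockout arrays and 18.1 to 582 units on LT-HSC control arrays. The summed signal of the 11 genes that passed the filter was high on both arrays of 3 pairs. It was 2711 (knockout) and 3929.6 (control) in LT-HSC pair 2, 2685 and 3812 in MPP pair 2, and 2527 and 3667 in myeloid progenitor pair 3. On the arrays of the other 4 pairs it was 491 to 798 units on knockout arrays and 402 to 766 units on control arrays. The labels name no batch for these pairs, and each holds both genotypes. Dnmt1 differences of 1422946_a_at were -0.38, -1.11 and -0.40 in the 3 pairs with high interferon signal and -0.98 to -0.26 in the other 4. Those of 1435122_x_at were -0.53, -1.48 and -0.74 in the 3 pairs and -1.44 to -0.70 in the other 4. Dnmt1 was thus lower in knockout arrays at both levels of interferon signal. Of 15 listed interferon genes 11 passed the filter. Their median was -0.08, and by limma 0 passed and 0 were under an unadjusted p of 0.05. The smallest p were those of Mx1, at -0.35 ± 0.35, and Ifit3, at -0.28 ± 0.33. Among all 15549 probe sets 916 were under an unadjusted p of 0.05 on average by limma.

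Genes whose signal followed Dnmt1 most closely over the 14 arrays were named by Pearson r, as a description, with 8607 genes compared. With 1422946_a_at the 5 highest were Eif4e3 (r = 0.88), Pbxip1 (0.84), Mfhas1 (0.83), Stx5a (0.79) and Cast (0.79). Eif4e3 is a cap-binding translation factor and Stx5a a protein of vesicle fusion. The 5 lowest were Perp (-0.91), a p53 target of cell junctions and apoptosis, Slc9a3r2 (-0.88), Hikeshi (-0.88), Pard6b (-0.86) and Macrod2 (-0.84). With 1435122_x_at the 5 highest were Atp6v1g1 (0.84), a proton pump subunit, Cd93 (0.83), a receptor on early progenitors, Cramp1l (0.78), Hibadh (0.78) and 1700023D09Rik (0.77). The 5 lowest were Pfdn1 (-0.94), a chaperone subunit, Ipp (-0.90), Trap1a (-0.88), Rhox5 (-0.87) and H2-Bl (-0.86). The arrays of a genotype share its effect, so genes that differ between genotypes reach a high r in either direction. No gene stood in the lists of both probe sets.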

How the data were processed

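The deposited table holds 1 intensity per probe set and array on a linear scale, as read from the values; the method of summarisation, background correction and scaling by the authors is not stated in them or in the labels used here. Per the labels' protocols, amplification used the WT-Ovation Pico kit. Of 22690 probe sets 64 were controls and left out. The platform annotation gave 1 symbol to 20380, several to 691 and none to 1555. The number of arrays limits the precision. Columns of no sample of the series numbered 0.

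Intensities were taken as log2(intensity + 16), which understates changes of dim genes, and quantile normalized over the 14 arrays. The filter on dim signal required a value above the array's own 40th percentile on 2 or more arrays. A limma fit (limma 3.58.1, R 4.3.3) of 6 group means with a mean-variance trend and 8 residual degrees of freedom gave all differences. The average is the mean of the 3 population differences. Tests were two-sided, Benjamini-Hochberg adjusted over all 15549 probe sets, with a threshold of 0.05. In lists and for neighbours, the brightest probe set of a gene was used. The procedure was tested on simulated data.

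Per the labels, control and knockout samples of a replicate were littermates. As a check of this pairing, the deviations of both partners from their group means had an r of 0.44 for LT-HSCs and 0.57 for MPPs, where a group of 2 gives both pairs the same r, and of 0.21, 0.54 and 0.59 for the myeloid progenitor pairs. The fit had no block, and the fit with pairs as blocks has 4 residual degrees of freedom. The Dnmt1 probe sets and the gene lists were chosen with earlier results of these data known. Genes named besides Dnmt1 are its 5 nearest measured neighbours per side, the 5 highest and 5 lowest by r, a few fixed partners, and in each list the members past the threshold plus the 2 with the smallest p. Alternatives were other pseudocounts and normalizations, no filter, 1 probe set per gene, blocks, leaving out each array and, chosen after seeing the data, counting separated probe sets on normalized values. Python 3.11.15, pandas 2.3.3 and matplotlib 3.10.9 prepared sequences and figures.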

Additional observations from a re-analysis of the deposited data

How the results depend on the processing

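The average and single-population differences of both Dnmt1 probe sets kept their sign under all alternatives run, and 1435122_x_at passed on average under every one in which it was tested (with 1 probe set per gene only 1422946_a_at was). 1422946_a_at on average changed its call only with the littermate pairs as a replicate block (-0.63, adjusted p = 0.0282). The replicate block changed no other Dnmt1 call. Differences in the knockout effect between populations had no settled sign: for 1435122_x_at, myeloid progenitors minus MPPs was -0.0029 with a pseudocount of 64, -0.024 without further normalization and -0.040 with arrays centred on their medians.

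Leaving out 1 array at a time moved the differences of the effect of 1422946_a_at from -0.12 to 0.49 (LT-HSC minus MPP), -0.089 to 0.52 (myeloid progenitors minus MPP) and -0.27 to 0.21 (LT-HSC minus myeloid progenitors). Those of 1435122_x_at moved from -0.24 to 0.44, -0.27 to 0.29 and -0.25 to 0.43. Between control populations, 1435122_x_at moved from -0.067 to 0.61 (LT-HSC minus MPP) and -0.45 to 0.23 (LT-HSC minus myeloid progenitors), and 1422946_a_at from -0.17 to 0.21 (myeloid progenitors minus MPP). Control arrays share a replicate number across populations, but same-numbered arrays did not deviate together (r of -0.41 to 0.11), and that block, with 0.13 and 0.61 for myeloid progenitors minus MPPs, changed no call. Equal numbers need not mean the same mice or batch. Summed interferon signal was 3930 and 3812 units on LT-HSC and MPP control arrays 2. It was 435 units on myeloid progenitor control array 2 and 3667 on array 3. These r therefore cannot show whether populations shared mice or a batch.

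The number of probe sets with all knockout arrays below all control arrays was 9 by deposited intensity and 3 by normalized values, an alternative chosen after seeing the data. The number of probe sets past the threshold was 12 in LT-HSCs, 9 in MPPs, 22 in myeloid progenitors and 54 on average. With the pairs as a replicate block it was 45, 22, 36 and 142. With 1 probe set per gene, where fewer were tested, it was 6 in LT-HSCs, 8 in myeloid progenitors and 20 on average, and with a pseudocount of 64 it was 4 in MPPs and 10 in myeloid progenitors. Leaving out 1 array moved it from 3 to 165, 3 to 11, 6 to 30 and 43 to 103. The array whose absence gave 165 was LT-HSC knockout array 2. The cause was not tested. A group left with 1 array is assumed to vary like the others.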
